A study of Rattus norvegicus with 12 samples.

Results

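AMP-activated protein kinase (AMPK) is the energy sensor of the cell, a complex of a catalytic alpha, a scaffolding beta and a nucleotide-binding gamma subunit. When AMP and ADP rise relative to ATP, the gamma subunit binds them and an upstream kinase phosphorylates the activation loop of alpha. AMPK then restrains synthesis of fat, protein and glycogen and promotes uptake and oxidation of fuel, and in heart muscle the alpha 2 form is the main catalytic isoform of the mature tissue. Described here are 9 genes of this system in neonatal rat heart cells: the subunit genes Prkaa1, Prkaa2, Prkab1, Prkab2, Prkag1 and Prkag2, and the genes of 3 kinases that can phosphorylate alpha, Stk11 (LKB1), Camkk2 and Map3k7 (TAK1). They were taken by symbol from a table of read counts for 32883 genes, and each symbol named a single row. A filter on low counts was passed by 8 of the 9, and Map3k7 did not pass it.

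The cells were primary cultures of ventricular cardiomyocytes from newborn rats, sampled 2 days after an adenovirus was added. Controls received LacZ, a bacterial gene that serves as an inert cargo. The other groups received human KAT6A, a histone acetyltransferase, as wild type (WT), as the K815R mutant that resists acetylation at that lysine, or as the K815Q mutant that mimics it. Each group held 3 poly(A) RNA libraries, so all 12 had virus and none was left uninfected. The virus dose and promoter are not given in the sources used here, and nothing says that the libraries of a group came from separate cultures, so p-values measure only the spread between these libraries.

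Gene counts ranged from 19102048 to 25451686 per library. Levels are given as CPM, a gene's count relative to the TMM-scaled size of its library, and 3 reads corresponded to 0.118 to 0.156 CPM. A gene was called where edgeR's quasi-likelihood test gave a p under 0.05 after Benjamini-Hochberg adjustment over all 14063 genes that passed the filter. Kat6a stood at 45.5, 45.2 and 53.6 CPM in LacZ and 90.8, 82.0 and 106 in WT. K815R held 102, 122 and 101 CPM, and the libraries labelled K815Q held 43.4, 49.97 and 45.7. The last group lacked the rise seen in WT and K815R, so it is called the libraries labelled K815Q throughout, and its directions rest on the label. Cardiomyocyte markers (Tnnt2, Tnni3, Myh6, Actn2, Ryr2, Nppa, Myl7 and Pln) summed to 36582 to 40932 CPM over the 12 libraries. Fibroblast markers summed to 10960 to 12803 CPM, smooth muscle and pericyte markers to 1370 to 1567, endothelial markers to 145 to 217 and macrophage and leukocyte markers to 54.4 to 77.5, and no gene of these lists was at 0. The fibroblast sum was mostly Col1a1 (7213 to 8614 CPM) and Col3a1 (2865 to 3475). It hides Col1a2, which ran from 9.14 to 126 CPM over the 12 libraries. In K815R the cardiomyocyte sum, 39559 to 40932 CPM, lay above that of LacZ, 36582 to 38606. The macrophage sum did too (71.4 to 75.5 against 54.4 to 69.4), while the fibroblast sum lay below (11062 to 11510 against 11818 to 12686). The smooth muscle sum lay above LacZ (1370 to 1475) in WT (1485 to 1566). All other sums overlapped with those of LacZ. Against LacZ, 1 of 8 cardiomyocyte markers (higher) and 2 of 8 fibroblast markers (1 higher, 1 lower) were called by edgeR in WT, and 0 of either in K815R. The same counts were 1 and 2 in labelled K815Q, all higher. There, 1 of 8 macrophage markers (lower) and 1 of 8 smooth muscle markers (higher) were also called. Neither stands for its list, since the median log2 fold change was 0.27 for the macrophage markers and -0.0039 for the smooth muscle markers. Among all tested genes, 5.34% were called in WT, 2.47% in K815R and 7.85% in labelled K815Q. In bulk RNA, fewer cells of a type and less RNA per cell cannot be told apart.

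Prkaa2 (ENSRNOG00000007706), the alpha 2 catalytic subunit, was the member that separated the groups, and it rose in WT and in labelled K815Q. In LacZ it stood at 55.4, 54.8 and 72.7 CPM. The WT libraries held 488, 435 and 633 CPM and those labelled K815Q held 1232, 1134 and 1139, while K815R held 78.1, 95.4 and 88.1. No library of any group overlapped with another group, and the order from low to high was LacZ, K815R, WT and labelled K815Q. As a share of all gene counts, Prkaa2 took 0.00556% to 0.00743% in LacZ and 0.112% to 0.121% in the libraries labelled K815Q.

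**Figure D1:**
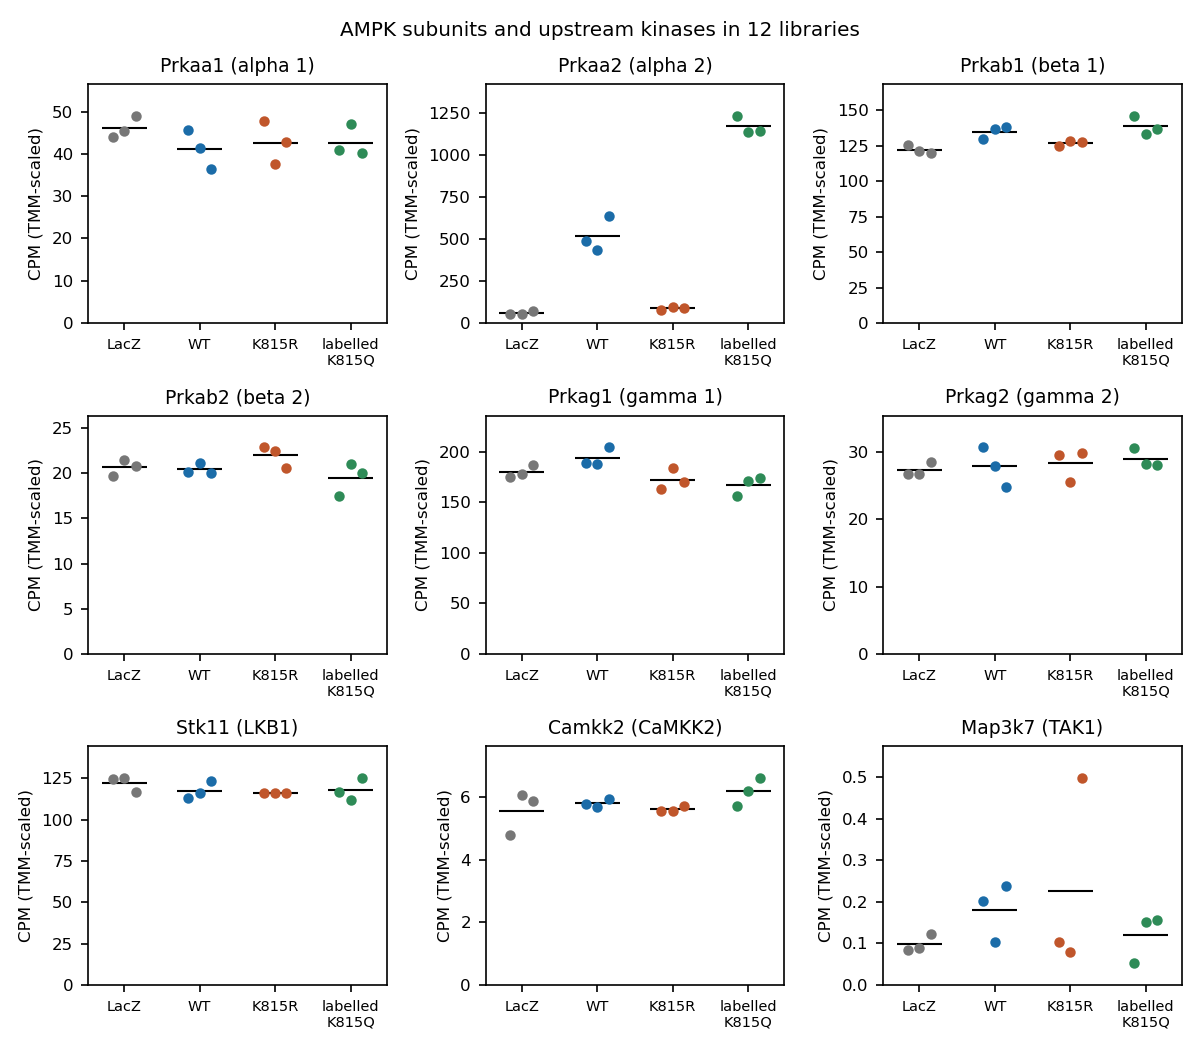
Levels of the 9 genes in each of the 12 libraries, in TMM-scaled CPM on linear axes that start at 0. Points are libraries in replicate order, lines are group means, and n = 3 per group. Prkaa2 lies between 54.8 and 72.7 CPM in LacZ and between 1134 and 1232 in the libraries labelled K815Q, while the 7 other genes above the filter keep within narrow bands. Map3k7 is at or near the level of 3 reads except in K815R replicate 3, which held 11 reads.

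Against LacZ, Prkaa2 was 8.51-fold higher in WT (95% interval 6.52 to 11.1) and 19.2-fold higher in the libraries labelled K815Q (14.5 to 25.3). These were called by edgeR, with adjusted p of 2.51e-05 and 4.06e-06. In K815R the fold was 1.43 (1.10 to 1.86), which was not called (edgeR's adjusted p 0.190, unadjusted 0.0126), although the 3 libraries lay above all 3 LacZ libraries. Directly compared, K815R held 0.168 of the WT level (0.130 to 0.218) and 0.0748 of the labelled K815Q level (0.0571 to 0.0979), with edgeR's adjusted p of 1.81e-04 and 5.26e-05. The labelled K815Q level was 2.25-fold that of WT (1.77 to 2.86, edgeR's adjusted p 0.0107). That last call was lost without WT replicate 1 (edgeR's adjusted p 0.0693), without K815Q replicate 1 (0.0543) and when edgeR was given those 6 libraries alone (0.0547). The part of the marker levels above in these differences was not tested.

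In each comparison with LacZ, the 8 tested members gave 1 call in WT, 0 in K815R (1 at an unadjusted p under 0.05, Prkaa2, by edgeR's quasi-likelihood test) and 2 in labelled K815Q, all of them higher. Among all tested genes, 5.34%, 2.47% and 7.85% were called in the same comparisons, with 1.95%, 0.74% and 2.87% called as higher and 3.39%, 1.74% and 4.98% as lower. Between the forms, Prkaa2 alone was called: lower in K815R than in WT (2.2% of all genes were called there, 0.882% as lower and 1.32% as higher), higher in labelled K815Q than in WT (1.07%, with 0.718% as higher and 0.356% as lower), and lower in K815R than in labelled K815Q (0.363%, with 0.149% as lower and 0.213% as higher). The median log2 fold change of the 8 members lay between -0.03 and 0.05 in the 6 comparisons, and that of all genes between -0.0035 and 0.0087. When all 4 groups were tested together, edgeR called 2 of the 8, Prkaa2 and Prkab1, beside 8.13% of all genes.

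Prkaa2 did not follow Kat6a across the groups, while inside LacZ, WT and K815R the ratio between them was narrow. For each read of Kat6a, LacZ held 1.22, 1.21 and 1.36 reads of Prkaa2. WT held 5.37, 5.31 and 5.96, K815R held 0.766, 0.785 and 0.872, and the libraries labelled K815Q held 28.4, 22.7 and 24.9. The coefficient of variation of this ratio was 6.50% for LacZ, 6.46% for WT, 7.01% for K815R and 11.4% for labelled K815Q. For Prkaa2 alone, in CPM, it was 16.7%, 19.8%, 9.98% and 4.75%, so the ratio varied less than Prkaa2 in the first 3 groups and more in the last. In LacZ, WT and K815R the library with the most Kat6a also held the most Prkaa2, whereas among those labelled K815Q the library with the most Prkaa2 held the least Kat6a. This ratio was examined after the values had been seen and has no test. The counts do not separate reads of the human KAT6A from those of the rat gene.

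**Figure D2:**
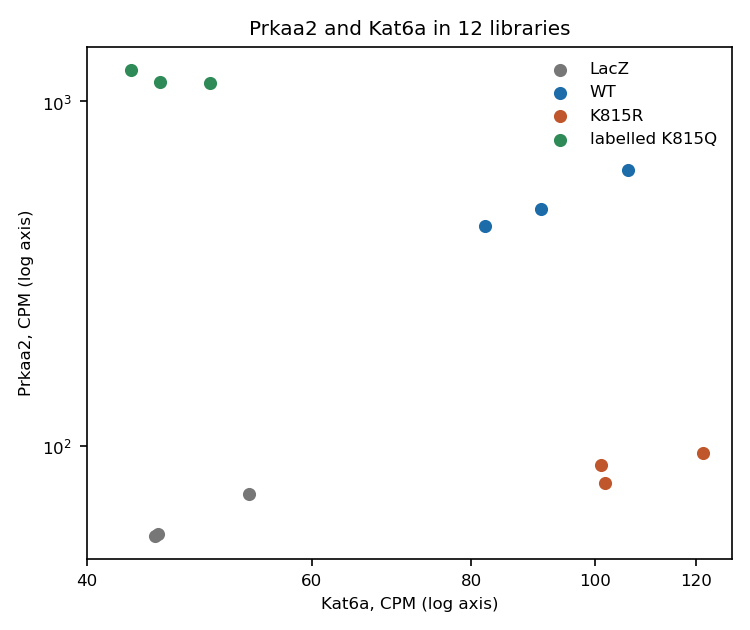
Prkaa2 against Kat6a in the 12 libraries, both in TMM-scaled CPM on log axes, with points coloured by group (n = 3 each). WT and K815R share a range of Kat6a from 82.0 to 122 CPM and lie apart in Prkaa2, while LacZ and labelled K815Q share a range from 43.4 to 53.6 CPM and lie at the lowest and the highest Prkaa2.

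Prkaa1 (ENSRNOG00000012799) encodes alpha 1, the other catalytic isoform, which is widely expressed. It stood at 44.0, 45.4 and 49.1 CPM in LacZ and at 45.6, 41.5 and 36.4 in WT. K815R held 47.7, 37.6 and 42.8 CPM, and the libraries labelled K815Q held 40.9, 47.1 and 40.1. All 4 groups overlapped. Its fold against LacZ was 0.891 (95% interval 0.779 to 1.02) in WT, 0.922 (0.807 to 1.05) in K815R and 0.925 (0.808 to 1.06) in labelled K815Q, and no comparison was called. Its intervals held no rise above 1.06-fold over LacZ in any group.

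The promoters of the alpha genes are shown because Prkaa2 rose under WT and labelled K815Q and Prkaa1 was not called. The 250 bases before each start site are from RefSeq on assembly GRCr8, in lower case, with matches to the GC box GGGCGG on either strand in capitals. Of the 9 genes, 8 had an entry. Prkaa2 is the first (chr5:125108325-125108574, minus strand) and Prkaa1 the second (chr2:55967525-55967774, plus strand).
Prkaa2: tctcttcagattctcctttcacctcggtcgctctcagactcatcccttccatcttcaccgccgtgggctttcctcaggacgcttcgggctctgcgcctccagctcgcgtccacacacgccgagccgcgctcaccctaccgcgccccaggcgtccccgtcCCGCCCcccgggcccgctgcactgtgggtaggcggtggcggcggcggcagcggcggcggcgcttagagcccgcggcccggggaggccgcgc
Prkaa1: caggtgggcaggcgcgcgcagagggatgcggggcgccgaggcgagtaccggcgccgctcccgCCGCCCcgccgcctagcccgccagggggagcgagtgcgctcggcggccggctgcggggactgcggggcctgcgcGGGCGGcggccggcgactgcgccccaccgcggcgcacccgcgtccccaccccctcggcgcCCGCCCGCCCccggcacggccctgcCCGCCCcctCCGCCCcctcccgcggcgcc

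Prkaa2 had 1 GC box in this window and Prkaa1 had 6, of which 2 overlap, and 30.5% of 33469 promoter windows of the same length held at least 1. Both windows were rich in CpG, the CG dinucleotide, with 33 in Prkaa2 and 45 in Prkaa1 against a median of 5. Neither held CCAAT or TATAA on either strand, motifs found in 34.0% and 24.0% of the windows. Among the other members, Prkab2 and Map3k7 also had 1 GC box, Prkab1 and Stk11 had 0 and Prkag1 had 2. The start sites of Prkag2 had 3 and 1. CpG ran from 17 (Prkag1) to 42 (Prkag2, start site 2) in those windows, with 33 at start site 1 of Prkag2. These matches are a description of letters and were not linked to the counts.

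The beta subunit holds the complex together and binds glycogen. Prkab1 (ENSRNOG00000001142, beta 1) stood at 125, 122 and 120 CPM in LacZ and 130, 137 and 139 in WT. K815R held 125, 128 and 128 CPM, and labelled K815Q held 146, 134 and 137. The WT and labelled K815Q libraries all lay above the LacZ libraries, and K815R overlapped with LacZ. In labelled K815Q it rose 1.14-fold over LacZ (95% interval 1.06 to 1.22, edgeR's adjusted p 0.0229). Leaving out single libraries ended the call 3 times in 6, without LacZ replicate 2, LacZ replicate 3 and K815Q replicate 1, with adjusted p from edgeR of 0.0804, 0.0845 and 0.156. WT was at 1.10-fold (1.03 to 1.18) and was not called (edgeR's adjusted p 0.0952). Over all 4 groups together, edgeR gave Prkab1 an adjusted p of 0.0488. That call was lost with RLE scaling (0.0532) and with no filter on low counts (0.0576). Leaving out single libraries ended it 9 times in 12, with the highest adjusted p, 0.157, without K815Q replicate 1.

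Prkab2 (ENSRNOG00000018166, beta 2) is the beta isoform abundant in striated muscle. Its levels were 19.7, 21.5 and 20.8 CPM in LacZ and 20.1, 21.1 and 20.1 in WT. K815R held 22.9, 22.5 and 20.6 CPM, and labelled K815Q held 17.5, 21.0 and 19.96. The groups overlapped in every comparison. The widest gap was between K815R and labelled K815Q, at 1.13-fold (95% interval 1.01 to 1.26), and it was not called (edgeR's adjusted p 0.397).

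The gamma subunit carries the sites that bind AMP, ADP and ATP, and in people mutations of PRKAG2 cause a glycogen-storing cardiomyopathy. Prkag1 (ENSRNOG00000061499, gamma 1) stood at 175, 177 and 187 CPM in LacZ and at 189, 188 and 205 in WT, all 3 above LacZ. K815R held 163, 183 and 170 CPM and labelled K815Q held 156, 171 and 174, all 6 below the WT libraries. Labelled K815Q was at 0.862 of WT (95% interval 0.796 to 0.934, edgeR's adjusted p 0.0644) and K815R at 0.889 (0.821 to 0.963, edgeR's adjusted p 0.131), so neither passed. Among the alternatives, the first passed with no filter on low counts (adjusted p 0.0111), in DESeq2 (0.0391) and in edgeR given those 6 libraries alone (0.0479). Prkag2 (ENSRNOG00000009085, gamma 2) ran from 24.8 to 30.8 CPM over the 12 libraries, and its folds between groups ran from 0.977 to 1.06. Its single libraries were 26.7, 26.7 and 28.5 CPM in LacZ and 30.5, 28.1 and 28.1 in labelled K815Q. The WT range, 24.8 to 30.8 CPM, covered every library of LacZ and labelled K815Q, and K815R ran from 25.5 to 29.9.

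Outside Prkaa2, the other 7 tested members gave 42 tests over the 6 comparisons, of which 1 was called and 6 had an unadjusted p under 0.05. Their log2 fold changes ran from -0.21 to 0.18. All 42 of the 95% intervals lay between 0.771-fold and 1.31-fold. Over all genes, 3.22% of the tests in the 6 comparisons were called, so the count for these 7 genes was near the background. The call was Prkab1 in labelled K815Q against LacZ.

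**Figure D3:**
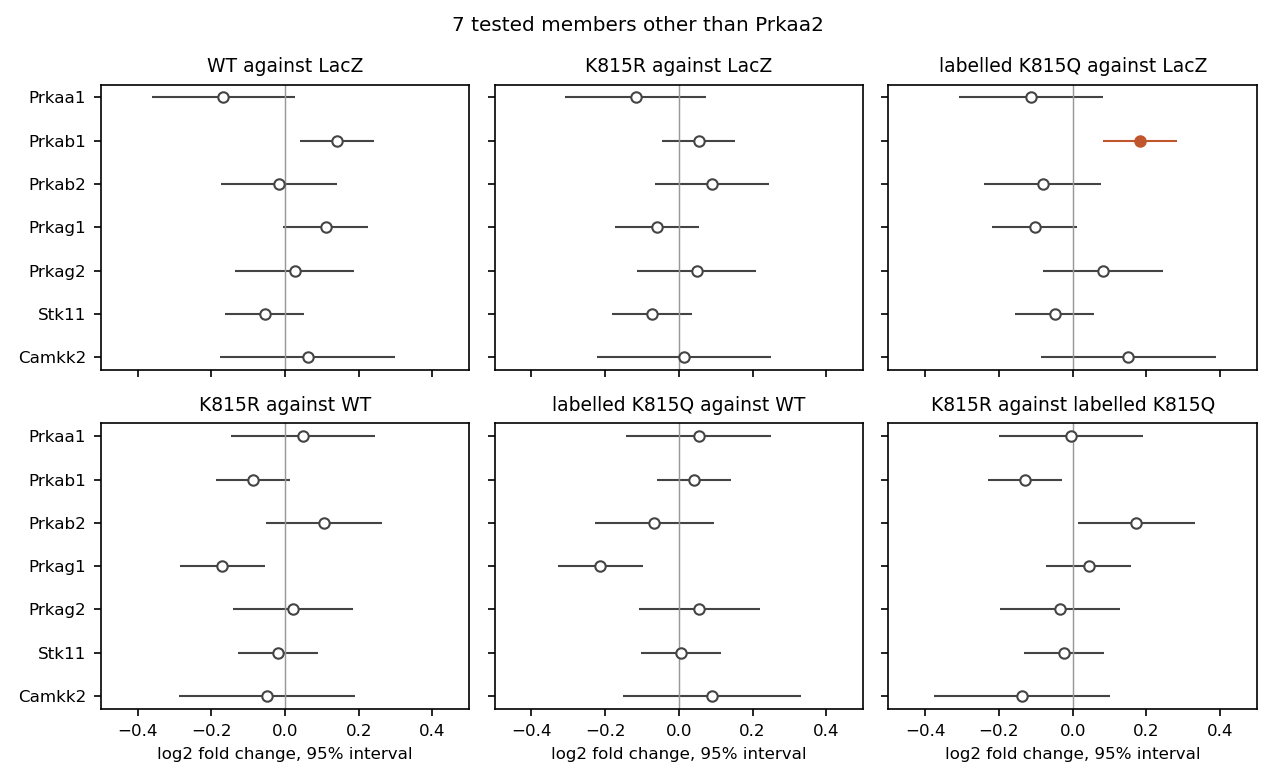
Log2 fold changes of the 7 tested members other than Prkaa2 in the 6 comparisons, with 95% intervals from edgeR. The filled point, Prkab1 in labelled K815Q against LacZ (0.18), is called and the open points are not, and every interval lies between -0.38 and 0.39.

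To compare isoforms within a library, where library size cancels, the ratio of counts was formed for 7 pairs or sums and tested over the 4 groups by an exact permutation test, adjusted over the 7. Gene lengths were not used, so a ratio is read between groups and not as a proportion of molecules. The ratio of Prkaa2 to Prkaa1 was 1.26, 1.21 and 1.48 in LacZ and 10.7, 10.5 and 17.4 in WT. K815R held 1.64, 2.54 and 2.06, and 30.1, 24.1 and 28.4 were found in labelled K815Q. It differed among the groups (exact permutation p 6.49e-05, the smallest 12 libraries in 4 groups can give, adjusted p 4.55e-04), and no groups overlapped. The fold in this ratio against LacZ was 9.54 in WT, 1.56 in K815R and 20.9 in labelled K815Q. With 3 libraries against 3 the exact permutation p of each such pair was 0.1, the smallest possible.

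Of all reads on the alpha genes, Prkaa2 held 55.7%, 54.7% and 59.7% in LacZ. This share was 91.4%, 91.3% and 94.6% in WT. K815R held 62.1%, 71.8% and 67.3%, and labelled K815Q held 96.8%, 96.0% and 96.6%. The widest Wilson 95% interval of a single library, LacZ replicate 2, ran from 52.6% to 56.7% and covers counting error only. The spread between the K815R libraries, with an SD of 4.84 points, was larger than that.

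Among the other isoform pairs, the ratio of Prkab2 to Prkab1 did not pass (exact permutation p 0.0399, adjusted 0.0699). It was lower in WT (0.145 to 0.155) than in LacZ (0.157 to 0.177), with no overlap, while K815R (0.161 to 0.183) overlapped with LacZ. Labelled K815Q ran from 0.120 to 0.157, and without K815Q replicate 2, its highest library, the adjusted p of the exact permutation test was 0.015. The ratio of Prkag2 to Prkag1 did not pass either (exact permutation p 0.288, adjusted 0.336), with values from 0.151 to 0.153 in LacZ and from 0.121 to 0.196 in the 9 other libraries. LacZ was the narrowest group here, with an SD of 0.0111 on the log2 scale against 0.152 to 0.220 in the others.

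The ratio of summed alpha to summed beta reads was higher in WT and labelled K815Q than in LacZ and K815R. Alpha to beta was 0.685, 0.700 and 0.864 in LacZ and 3.56, 3.02 and 4.22 in WT, with 0.849, 0.883 and 0.884 in K815R and 7.77, 7.63 and 7.51 in labelled K815Q (exact permutation p 1.30e-04, adjusted 4.55e-04). The 2 alpha genes are summed here, and of these Prkaa2 was called against LacZ and Prkaa1 was not. Gamma to beta differed by less, and WT overlapped with LacZ, at 0.987 of its ratio. It was 1.39, 1.43 and 1.53 in LacZ and 1.47, 1.37 and 1.45 in WT, with 1.30, 1.39 and 1.35 in K815R and 1.14, 1.29 and 1.29 in labelled K815Q (exact permutation p 0.00617, adjusted 0.0144). The labelled K815Q libraries all lay below the 9 others, at 0.855 of the LacZ ratio. Without K815Q replicate 1, which had the lowest value, the ratio did not pass after adjustment (exact permutation p 0.0416, adjusted 0.0970).

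**Figure D4:**
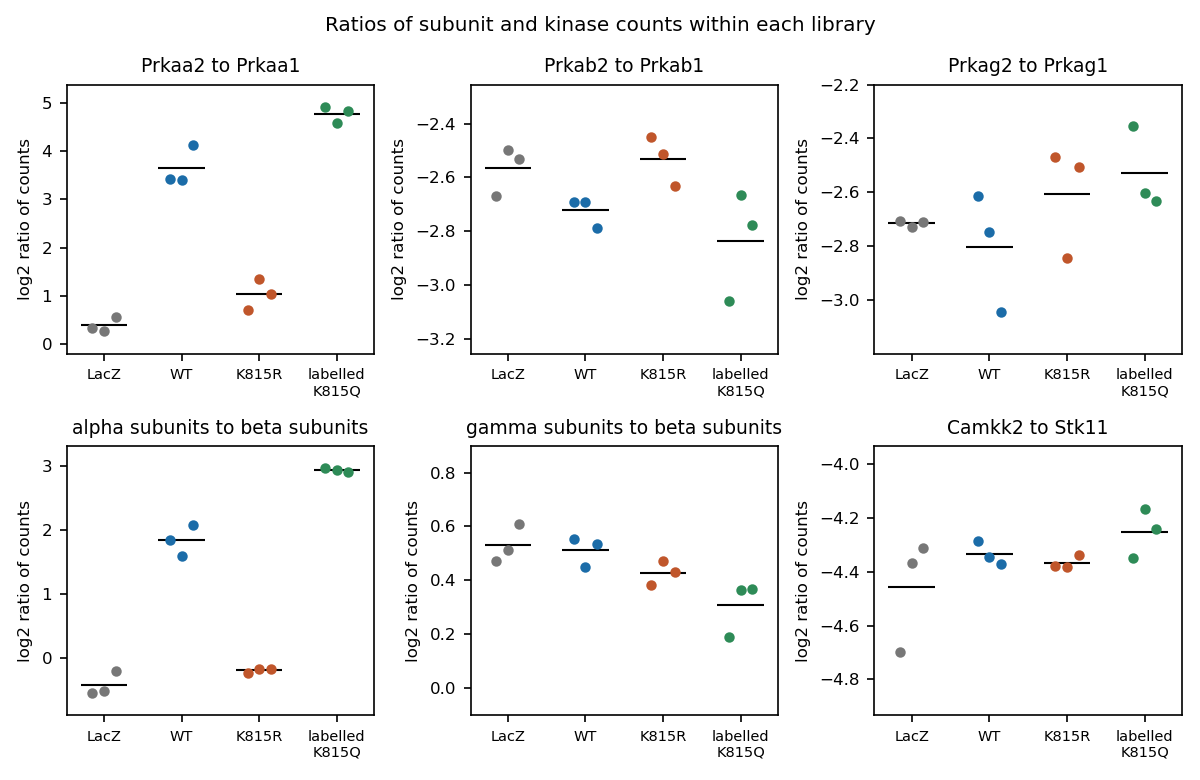
Log2 ratios of read counts within each library for 3 isoform pairs, 2 sums of subunits and Camkk2 to Stk11. Points are libraries in replicate order, lines are group means, n = 3 per group, and each panel has its own range. Prkaa2 to Prkaa1 and alpha to beta separate WT and labelled K815Q from LacZ and K815R, and gamma to beta is lowest in labelled K815Q.

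Of the upstream kinases, Stk11 and Camkk2 moved little, and Map3k7 had too few reads to tell. Stk11 (ENSRNOG00000014287) encodes LKB1, the main kinase of the alpha activation loop under energy stress. It stood at 124, 125 and 117 CPM in LacZ and 113, 116 and 123 in WT. K815R held 116, 116 and 116 CPM and labelled K815Q 117, 112 and 126. The groups overlapped except K815R and LacZ, where all 3 K815R libraries lay just below LacZ, and the fold there was 0.951 (95% interval 0.882 to 1.02, edgeR's adjusted p 0.592). Against LacZ the folds in WT and labelled K815Q were 0.963 and 0.966.

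Camkk2 (ENSRNOG00000001309) encodes a calcium- and calmodulin-dependent kinase that activates AMPK when calcium rises. Its counts were low, between 108 and 143 reads per library, which gave 4.78 to 6.06 CPM in LacZ and 5.68 to 5.94 in WT. K815R ran from 5.56 to 5.72 CPM and labelled K815Q from 5.72 to 6.62. No comparison was called, and the largest fold was 1.11 in labelled K815Q against LacZ (95% interval 0.942 to 1.31). The ratio of Camkk2 to Stk11 did not pass in the test among the groups (exact permutation p 0.250, adjusted 0.336). LacZ replicate 1 stood apart from the other LacZ libraries at 4.78 CPM, and without LacZ replicate 3, whose ratio was the highest in LacZ, the adjusted p of that permutation test was 0.0318.

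Map3k7 (ENSRNOG00000047516) encodes TAK1, a kinase of inflammatory signalling that can also phosphorylate alpha. Its row held 2, 2 and 3 reads in LacZ and 4, 2 and 5 in WT. K815R held 2, 2 and 11 reads, and labelled K815Q held 1, 3 and 3. Most of these are at or under the floor of 3 reads, so its level has no order and no fold is given. Entries tallied as aligned to more than 1 place made up 25.6% to 26.9% of each library's tally, which need not equal a share of reads. They were not counted to a gene, and whether reads of Map3k7 were among them was not tested. Of the TAK1 partners, Tab1 was called in K815R against WT, and Tab2 and Tab3 were called in no comparison.

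Genes that work with AMPK were taken from 5 lists of 92 genes, of which 5 had no row under that symbol, 3 fell below the filter and the rest gave 85 tested rows. In WT 5 of the 85 were called against LacZ (3 higher, 2 lower), in K815R 1 (lower) and in labelled K815Q 7 (2 higher, 5 lower). Against WT, 3 were called in K815R and 3 in labelled K815Q, and between those mutants 0 (edgeR's quasi-likelihood test, with 14 at an unadjusted p under 0.05, whereas DESeq2 gave 2). In all, 19 of 510 tests were called, or 3.73%, beside 3.22% for all genes over the same comparisons. The share near that background is no result about these lists, and the values that follow describe single genes.

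Of 17 tested rows for kinase partners and other inputs, Flcn, a lysosomal partner of the FNIP proteins, rose in WT from 106 ± 2.54 to 127 ± 4.26 CPM (SD, n = 3, log2 fold change 0.26, edgeR's adjusted p 0.00443). Sesn3, a sestrin that acts between stress signals and AMPK or mTORC1, fell in labelled K815Q from 35.2 ± 5.09 to 25.0 ± 2.21 CPM (SD, n = 3, log2 fold change -0.49, edgeR's adjusted p 0.0469). WT held 25.5 ± 3.61 CPM of Sesn3 and was not called (-0.46, edgeR's adjusted p 0.0744), nor was K815R (-0.30, 0.351). Labelled K815Q was at -0.03 against WT (edgeR's adjusted p 0.945), so the fall was not particular to it. Fnip2, a partner of folliculin, fell in labelled K815Q against WT (log2 fold change -0.41, edgeR's adjusted p 0.0396). Tab1 was lower in K815R, at 29.6 ± 0.348 CPM, than in WT, at 35.05 ± 0.622 (SD, n = 3, log2 fold change -0.24, edgeR's adjusted p 0.0384). The other 13 rows, among them the LKB1 partners Strada and Cab39 and the muscle gamma isoform Prkag3, were called in no comparison.

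Of 16 phosphatases, inhibitory kinases and other negative regulators, 14 were called in no comparison. Gsk3b, a kinase that can restrain AMPK, was lower in labelled K815Q than in LacZ (log2 fold change -0.26, edgeR's adjusted p 0.0361). Cidea, a lipid droplet protein, was higher in K815R than in WT (0.28, edgeR's adjusted p 0.0406). Among 13 AMPK-related kinases, which LKB1 also activates with few exceptions, Mark1 and Sik1 were called. Mark1, a kinase of microtubule-binding proteins, fell in WT from 27.1 ± 1.26 to 20.6 ± 1.34 CPM (SD, n = 3, log2 fold change -0.39, edgeR's adjusted p 0.00110) and was higher in labelled K815Q than in WT (0.30, edgeR's adjusted p 0.0343). Sik1, the salt-inducible kinase, fell against LacZ in WT (-0.29, edgeR's adjusted p 0.0364) and in labelled K815Q (-0.32, edgeR's adjusted p 0.0191), while in K815R it was at -0.05 and ran from 47.9 to 61.3 CPM.

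Of 25 tested substrates of AMPK, 4 were called in at least 1 comparison. Acaca, the acetyl-CoA carboxylase of fatty acid synthesis, fell in labelled K815Q from 47.9 ± 5.15 to 36.4 ± 1.82 CPM (SD, n = 3, log2 fold change -0.40, edgeR's adjusted p 0.00172). Rptor, the scaffold of mTORC1, fell there as well (-0.24, edgeR's adjusted p 0.0376). Eef2k, the kinase that slows translation elongation, rose in WT (0.22, edgeR's adjusted p 0.0242) and in labelled K815Q (0.20, edgeR's adjusted p 0.0298), and stood at 0.09 in K815R (edgeR's adjusted p 0.545). Crtc2, a CREB coactivator, was higher in labelled K815Q than in WT (0.25, edgeR's adjusted p 0.0494). Phosphorylation of these proteins was not measured, so nothing here reads AMPK activity.

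Of 14 tested enzymes of adenylate and phosphocreatine turnover, Ckm and Ckmt2 were called. Ckm, the muscle creatine kinase, rose from 882 ± 41.3 CPM in LacZ to 1016 ± 35.3 in WT and 1019 ± 34.9 in labelled K815Q (SD, n = 3, log2 fold changes 0.20 and 0.21, edgeR's adjusted p 0.0286 and 0.0226). Ckmt2, the mitochondrial creatine kinase of striated muscle, fell in K815R to 16.4 ± 2.07 CPM, from 22.3 ± 1.62 in LacZ and 22.6 ± 2.88 in WT (SD, n = 3). Its log2 fold changes were -0.45 and -0.47, with edgeR's adjusted p of 0.00931 and 0.0107. Against labelled K815Q it was at -0.42 and was not called (edgeR's adjusted p 0.0572).

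**Figure D5:**
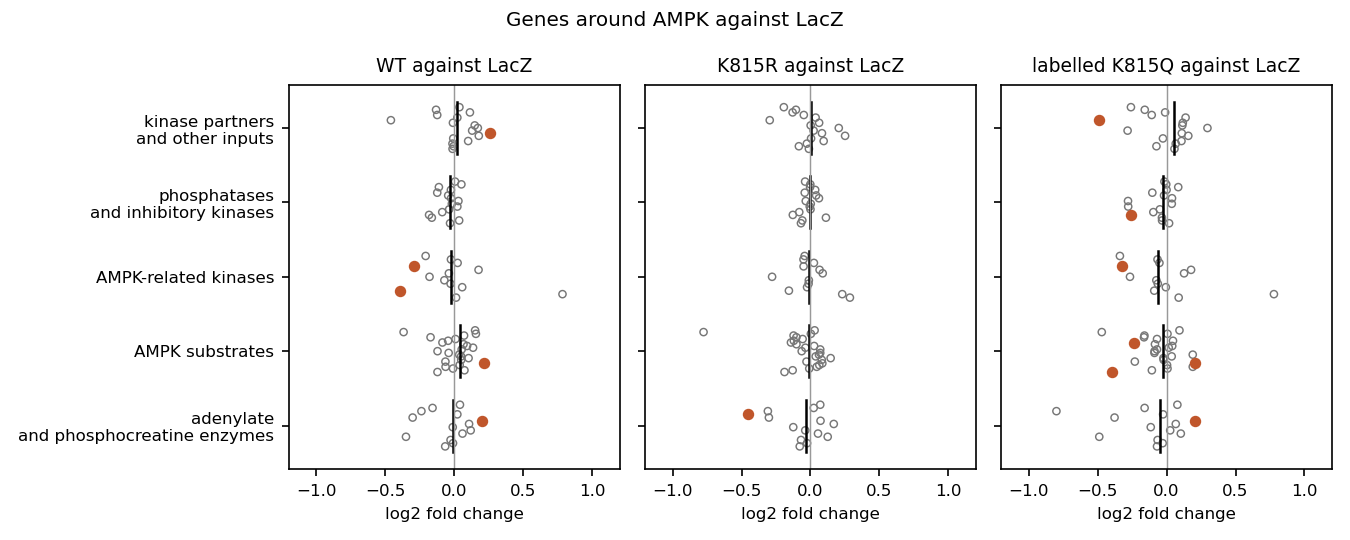
Log2 fold changes against LacZ of the tested genes of the 5 lists, in WT, K815R and the libraries labelled K815Q. Filled points are called by edgeR, open points are not, and short lines are list medians. The medians lie between -0.06 and 0.06, and 5, 1 and 7 of 85 points are filled.

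Other genes whose levels followed the order of Prkaa2 were found by Spearman's rho over the 12 libraries, among 9751 genes of at least 5 CPM with a gene symbol. The libraries share their groups, so this is a description with no test. The highest values were for Adra1b (an alpha-1 adrenergic receptor) and Rcsd1 at 0.979 each, Tubb3 at 0.972, and Smarcd1 and Plgrkt at 0.937 each. Adra1b ran from 52.3 ± 1.58 CPM in LacZ to 61.3 ± 2.45 in labelled K815Q and Tubb3 from 22.8 ± 0.870 to 33.6 ± 4.51 (SD, n = 3), so the order was shared and the size was not. At the other end stood RT1-A1 (a class I antigen gene) at -0.979, Lcn2 at -0.965, and Agrn, Mx1 and Gbp2 at -0.937 each. RT1-A1 fell from 277 ± 52.9 CPM in LacZ to 159 ± 2.17 in labelled K815Q (SD, n = 3), and it belongs to a family of similar genes, so its count is uncertain.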

How the data were processed

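The authors deposited raw read counts per Ensembl gene for 12 libraries. The submitters' processing notes name Trimmomatic 0.39, HISAT2 2.2.1, HTSeq 0.6.1, edgeR and the build Rnor_6.0; the strand setting is not given in the sources used here, and overlapping or antisense genes are uncertain for that reason. Reads that aligned to more than 1 place were not counted to a gene, so near-identical copies lose reads. The 5 last rows name no gene and stayed out of library sizes. They hold 25.6% to 26.9% (more than 1 place) and 11.7% to 12.9% (no feature) of each library's tally.

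Counts were scaled by TMM and filtered by filterByExpr (minimum count 10, minimum total 15). The quasi-likelihood test of edgeR 4.0.16 in R 4.3.3, with robust dispersion and group means over all 12 libraries, gave 6 comparisons and a test for any difference, with Benjamini-Hochberg adjustment over 14063 genes. Ratios used counts plus 0.5. Every member was named. Of each list, the genes called in at least 1 comparison were named, at most 5. The 5 genes at each end of likeness to Prkaa2 were named, leaving out clone and LOC names. The members and lists were chosen with earlier results of these data known. The procedure was tested on simulated data. The alternatives tried were scaling by RLE or by upper quartile, no filter, 10 counts in every library, DESeq2 1.42.0, a replicate block, only the 6 libraries compared, another pseudocount and leaving out each library. Promoter sequences are from RefSeq (GRCr8). Lengths of transcripts were not used here.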

Additional observations from a re-analysis of the deposited data

How the results depend on the processing

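Of the 6 calls among the members, the 4 of Prkaa2 other than labelled K815Q against WT were kept under every alternative run. RLE scaling gave 1 call in the test for any difference, where 2 are reported, and so did the fit without the 3 libraries labelled K815Q, an alternative chosen after seeing the data. In that test, Prkab1 was lost and Prkag1 gained with no filter (edgeR's adjusted p 0.0576 and 0.0117) and with the replicate block (0.0596 and 0.0338), and DESeq2 also called Prkag1 (adjusted p 0.0401). In labelled K815Q against WT, 2 members were called with no filter, 2 in DESeq2 and 2 with the replicate block, Prkag1 being the added one (edgeR's adjusted p 0.0371 with the block). Calls in the 5 lists rose with no filter from 19 to 31 in all, to 6 in K815R against WT, 6 in labelled K815Q against WT and 3 in K815R against labelled K815Q. That last count was 2 in DESeq2, 1 with the replicate block and 2 in edgeR on those 6 libraries alone, which also gave 2 in K815R against LacZ.

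Leaving out each library gave 1 to 2 members called in labelled K815Q against LacZ, 0 to 1 in labelled K815Q against WT, 4 to 7 over all comparisons, 1 to 3 in the test for any difference and 2 to 4 ratios. Small log2 fold changes that changed sign without some library ran as follows. In WT against LacZ, Camkk2 ran from -0.039 to 0.12, Prkag2 from -0.053 to 0.10 and Prkab2 from -0.050 to 0.010. In K815R against LacZ, Camkk2 ran from -0.086 to 0.077, and in labelled K815Q against LacZ, Kat6a ran from -0.11 to 0.032. In K815R against WT, Prkag2 ran from -0.055 to 0.10, Prkaa1 from -0.035 to 0.14 and Stk11 from -0.044 to 0.019. In labelled K815Q against WT, Prkag2 ran from -0.022 to 0.13, Prkaa1 from -0.029 to 0.13, Stk11 from -0.040 to 0.044 and Prkab2 from -0.12 to 0.0058. In K815R against labelled K815Q, Prkag2 ran from -0.075 to 0.038, Prkaa1 from -0.090 to 0.082, Stk11 from -0.062 to 0.023 and Prkag1 from -0.0040 to 0.080. None of these 16 was called, and the cause of the changes was not tested.

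The labels number the replicates alike in each group. Deviations from the group means correlated between -0.13 and 0.12 in the 18 pairs of libraries with the same number. Of 12 libraries, 5 correlated best with their own number. The labels do not say whether libraries of the same number were prepared together, and these correlations cannot decide it. Over all genes, the block gave more calls in each of the 6 comparisons. Against LacZ it gave 800 in WT (751 without it), 390 in K815R (348) and 1280 in labelled K815Q (1104). Against WT it gave 343 in K815R (309) and 232 in labelled K815Q (151). In K815R against labelled K815Q it gave 86 (51). With no filter, labelled K815Q against WT gave 423 and K815R against labelled K815Q gave 307. That setting gave 600 in K815R against LacZ (348 with the filter) and 553 in K815R against WT (309 with it). For K815R against labelled K815Q, DESeq2 gave 105 and the 6 libraries alone 85. The ratios weighted by coding length were not run, since no lengths were used here. Low read counts limit what can be said of Map3k7 and, less so, of Camkk2, and the cause of the low counts was not tested.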

Other observations

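No tested neighbour of Prkaa2 was called as higher. In the order of RefSeq's GRCr8, of the 3 protein-coding genes on each side, Plpp3 and Usp24 on the side after Prkaa2 were tested. Plpp3, a lipid phosphate phosphatase, had log2 fold changes against LacZ of -0.05 in WT, -0.06 in K815R and 0.05 in labelled K815Q, and was not called. Usp24, a deubiquitinase, stood at -0.10 and -0.11 and fell in labelled K815Q by 0.23 on the log2 scale (edgeR's adjusted p 0.0123). C8a was at or near 0 and below the filter, and the other 3 had no row under that symbol.

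With no filter on low counts, Map3k7 was called in no comparison, and its 95% intervals were wide, for example from -0.26 to 2.54 on the log2 scale in K815R against LacZ, where K815R replicate 3 held 11 of the 15 reads of its group.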
